A study of Rattus norvegicus with 4 samples.

Results

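The genes described here encode 9 enzymes of glycolysis and the glucose transporter of the plasma membrane: Slc2a1, Hk2, Aldoa, Tpi1, Gapdh, Pgk1, Pgam1, Eno1, Pkm and Ldha. They were taken by name, as all array probes whose RefSeq accession belongs to 1 of these rat genes, and make up 10 of the 16581 genes that could be named on the array. They had 24 probes of 45598. The cells were NR8383, a rat alveolar macrophage line obtained by lung lavage from a normal rat, described as being at 20 passages. All 4 cultures were treated with single-walled carbon nanotubes in pristine form (NRCWE055), 11 cm2/cm2 during 4 h, and the study calls them biological replicates. The source names of replicates 2, 3 and 4 carry the nanotube names NRCWE056, NRCWE057 and NRCWE058, against NRCWE055 in the titles, and the titles were followed. Unexposed cells are part of the design and were not analysed here. The levels therefore describe exposed cells alone and show no effect of exposure. The cells are a continuous line, which differs from macrophages taken freshly from a lung. Of 10 macrophage markers 8 were detected on every array, beside 52.4% of all genes that could be named, and Marco and Adgre1 on none. With a looser flag, positive and significant signal, Adgre1 was detected on all 4 arrays and Marco on 2. Of 14 measured markers of other lung and blood cells, 1 (Cdh5) was detected on every array, and the fibroblast marker Dcn joined it with the looser flag.

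Glycolysis splits glucose into pyruvate in the cytosol and yields ATP without oxygen. A transporter lets glucose in, hexokinase traps it by phosphorylation, a preparatory phase cuts the sugar into a pair of triose phosphates, and a payoff phase makes ATP, NADH and pyruvate, which lactate dehydrogenase can reduce to lactate so that NADH is recycled. Macrophages use the pathway heavily when they are activated, and the transcription factors HIF1 and MYC are known to drive many of its genes.

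The promoters of the genes are shown for Slc2a1, Gapdh and Ldha, which stand at the entry, the middle and the exit of the pathway and held the most matches to the core of the HIF response element. Sequences run from 250 bases before to 50 after the transcription start in RefSeq for GRCr8, 5′ to 3′ on the strand of the gene, and capitals mark ACGTG or GCGTG on either strand. The Slc2a1 window is chr5:138002272-138002571 on the plus strand, the Gapdh window chr4:159652418-159652717 on the minus strand and the Ldha window chr1:106507842-106508141 on the plus strand.
Slc2a1: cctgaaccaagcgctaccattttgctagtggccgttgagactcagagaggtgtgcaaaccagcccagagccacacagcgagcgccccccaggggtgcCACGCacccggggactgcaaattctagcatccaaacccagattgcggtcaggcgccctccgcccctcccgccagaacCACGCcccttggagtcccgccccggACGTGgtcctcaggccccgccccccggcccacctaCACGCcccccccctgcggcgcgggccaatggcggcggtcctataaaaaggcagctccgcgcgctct
Gapdh: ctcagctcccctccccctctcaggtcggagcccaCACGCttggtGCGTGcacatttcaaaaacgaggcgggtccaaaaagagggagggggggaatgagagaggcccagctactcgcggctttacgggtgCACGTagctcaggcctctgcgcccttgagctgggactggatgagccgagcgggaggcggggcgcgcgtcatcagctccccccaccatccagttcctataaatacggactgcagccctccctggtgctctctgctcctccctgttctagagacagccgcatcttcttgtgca
Ldha: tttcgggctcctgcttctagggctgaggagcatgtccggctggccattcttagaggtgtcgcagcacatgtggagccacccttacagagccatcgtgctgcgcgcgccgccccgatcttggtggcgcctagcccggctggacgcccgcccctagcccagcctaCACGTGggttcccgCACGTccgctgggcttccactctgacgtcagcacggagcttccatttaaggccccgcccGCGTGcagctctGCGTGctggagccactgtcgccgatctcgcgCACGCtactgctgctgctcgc
The Ldha window held 6 matches, the most among the 12 promoters of the members. Of the 33469 promoters in the table, 0.63% reached that number, a share for single promoters and not for the highest of 12. A pair of them overlap as the palindrome CACGTG, the E-box that MYC is known to bind, which starts 87 bases before the transcription start and is found in 6.42% of all promoters. The Slc2a1 window held 4 matches, the nearest at 16 bases before the start, and the Gapdh window held 3. Of the 9 genes with a promoter in the table, 6 had at least 1 match, beside 44.6% of all 27457 genes. Of their 12 promoters 7 had a match, beside 41.6% of all promoters. The others with a match were Aldoa, Pgam1 and Eno1, and not every Aldoa window held one. Hk2, Tpi1 and Pkm had none of these letters in their windows. A match is a description of the letters and no binding was measured.

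Signal was read on 1-colour arrays, and each value is the processed signal of a probe, an intensity from which the scanner software had removed the background. Levels are its log2 minus the 75th percentile of the array, taken over the probes detected on all arrays, so that 0 stands for that percentile. The percentile was 1756, 2631, 2861 and 1873 for replicates 1 to 4, so replicates 2 and 3 had the higher overall signal. A probe counted as detected when most of its spots carried the software's flag "well above background". A level describes a probe and its gene across arrays and is not compared between genes. In RNA from whole cultures, fewer cells of a type and less RNA per cell cannot be told apart. All 10 genes and all 24 probes were detected on all 4 arrays, against 52.4% of named genes. No member spot was saturated: the highest raw median of a member spot was 194531 on replicate 3, and the software's saturation value was 779451.

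**Figure D1:**
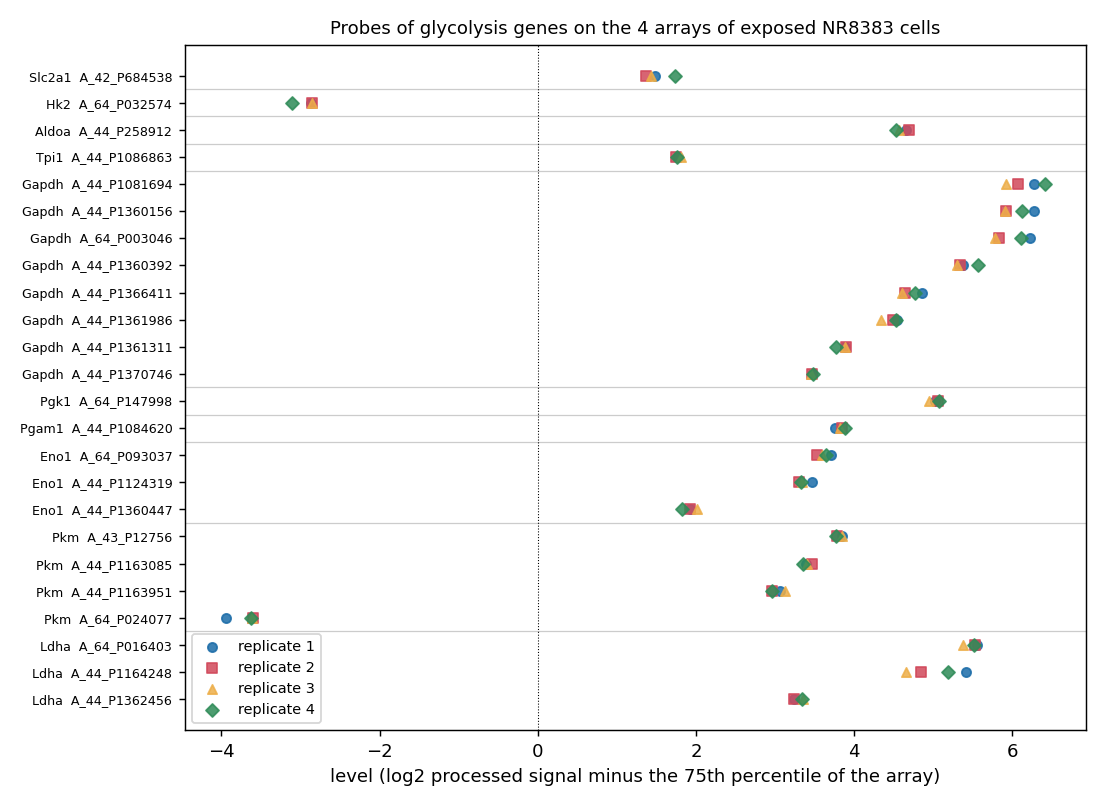
Level of each of the 24 probes (rows) on the 4 arrays (coloured symbols), on the log2 scale relative to the 75th percentile of each array (dotted line at 0). The arrays lie close together for most probes, while the 4 Pkm probes reach from -3.70 to 3.81 in their means.

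Glucose entry and trapping came first. Slc2a1 encodes GLUT1, the transporter that brings glucose into many cell types, and was read by 1 spot per array. Its processed signal was 4884, 6809, 7713 and 6218 on replicates 1 to 4, which gave levels of 1.48, 1.37, 1.43 and 1.73. The mean was 1.50 ± 0.16 (SD, n = 4), with replicate 4 above the other three. Hk2 encodes hexokinase 2, which phosphorylates glucose and can bind to mitochondria, and was also read by 1 spot per array. Its signal was 241, 364, 396 and 218 and its levels were -2.86, -2.85, -2.85 and -3.10. The mean was -2.92 ± 0.12 (SD, n = 4), with replicates 1 to 3 within 0.01 of one another and replicate 4 below them. Replicate 4 was also lowest from median signals with normexp correction, where the SD was 0.047.

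The preparatory phase is represented by aldolase and triose phosphate isomerase. Aldoa encodes aldolase A, which cleaves fructose bisphosphate into its triose products. Its signal was 44134, 67863, 67956 and 43057, and its levels were 4.65, 4.69, 4.57 and 4.52, with a mean of 4.61 ± 0.08 (SD, n = 4). Replicates 1 and 2 were the higher pair, but the pair was 1 and 3 with normexp correction and 2 and 3 with quantile normalization. Tpi1 encodes the isomerase that interconverts the trioses. Its signal was 5981, 8847, 10068 and 6358, and its levels were 1.77, 1.75, 1.82 and 1.76, within 0.066 of one another, with a mean of 1.77 ± 0.03 (SD, n = 4).

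In the payoff phase, Gapdh encodes the dehydrogenase that forms NADH and is often used as a reference gene. It had 8 probes of 1 spot each, all to the same transcript accession. Its gene levels, the means of the 8 probes, were 5.11, 4.96, 4.90 and 5.09, with a mean of 5.02 ± 0.10 (SD, n = 4). Replicates 1 and 4 lay above replicates 2 and 3, whereas with quantile normalization replicate 1 was the lowest and the SD was 0.039. The probe means ran from 3.47 to 6.17, a span of 2.70 or 6.50-fold in signal. Gapdh has many processed pseudogenes in rodents, and whether a probe also reads their transcripts was not tested.

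The Gapdh probes differed in how far the arrays lay apart. The brightest, A_44_P1081694, had signals of 136293, 176074, 173536 and 158827 and levels of 6.28, 6.06, 5.92 and 6.41. The dimmest, A_44_P1370746, had signals of 19422, 29194, 31213 and 20968 and levels of 3.47, 3.47, 3.45 and 3.48, so its SD was 0.02, while that of the brightest was 0.22. The 3 probes with a mean near 6 had SDs between 0.18 and 0.22, and the 2 with a mean under 4 had SDs of 0.06 and 0.02. Across the 8 probes, 6 were lower on both replicates 2 and 3 than on replicates 1 and 4, and the 2 exceptions were the dimmest pair. With quantile normalization, 0 of the 8 had this order. The arrays then still lay 0.28 apart for the brightest probe and 0.063 apart for the dimmest. They lay 0.051 apart for A_64_P003046, with a mean near 6, and 0.21 apart for A_44_P1361311, with a mean under 4. The spread thus did not follow the level across all 8 probes. From median signals with normexp correction, the 3 probes near 6 kept the order, with arrays 0.44, 0.43 and 0.41 apart. The dimmest pair again lacked it, with arrays 0.17 and 0.23 apart, and A_44_P1360392 lost it.

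Pgk1 encodes phosphoglycerate kinase, the first step that returns ATP. Its signal was 57137, 87845, 87838 and 63250, and its levels were 5.02, 5.06, 4.94 and 5.08, a mean of 5.03 ± 0.06 (SD, n = 4). Replicate 3 was the lowest, whereas replicate 1 was the lowest both with normexp correction and with quantile normalization. Pgam1 encodes phosphoglycerate mutase, which moves the phosphate group, and its probe was printed 10 times per array. Its levels were 3.76, 3.85, 3.82 and 3.88, a mean of 3.83 ± 0.05 (SD, n = 4), with replicate 1 the lowest.

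Eno1 encodes enolase 1, which forms phosphoenolpyruvate, and had 3 probes printed 10 times each. Its gene levels were 3.03, 2.92, 2.98 and 2.93, a mean of 2.96 ± 0.05 (SD, n = 4). The probe means were 3.62, 3.35 and 1.92, a span of 1.70. The brighter pair, A_64_P093037 and A_44_P1124319, was highest on replicate 1 (A_64_P093037 was level with replicate 3 under quantile normalization), whereas A_44_P1360447 was highest on replicate 3.

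Pkm encodes the muscle-type pyruvate kinase, which makes pyruvate and ATP and has M1 and M2 forms that arise by alternative splicing. Its 4 probes carry the same accession, and the files do not say which form each reads. Probes A_43_P12756, A_44_P1163085 and A_44_P1163951 had means of 3.81, 3.40 and 3.02. Probe A_64_P024077 had signals of 114, 217, 234 and 151 and a mean of -3.70, which is 6.72 below the next probe, or 105-fold in signal, although it was well above background on every array. The gene levels over all 4 probes were 1.59, 1.65, 1.69 and 1.61, a mean of 1.64 ± 0.04 (SD, n = 4). Without the dim probe, a choice made after its values were seen, they were 3.44, 3.40, 3.46 and 3.36, a mean of 3.41 ± 0.04 (SD, n = 4). The SD was therefore alike with and without it, and the level and the order of the arrays were not. Replicate 1 was the lowest with the dim probe, at 1.59, and above replicates 2 and 4 without it, at 3.44. The Pkm deviations given below use all 4 probes.

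Ldha encodes the A subunit of lactate dehydrogenase, the enzyme that turns pyruvate into lactate. Its gene levels were 4.73, 4.54, 4.46 and 4.68, a mean of 4.60 ± 0.13 (SD, n = 4), with replicates 1 and 4 above replicates 2 and 3. With quantile normalization the SD was 0.029. The 3 probes did not share this order. Probe A_44_P1164248 had signals of 74787, 75502, 71873 and 68412, nearly level across arrays whose overall signal differed, and levels of 5.41, 4.84, 4.65 and 5.19. Its highest and lowest arrays lay 0.76 apart, the widest among the 24 probes. Probe A_64_P016403 had signals of 82095, 121525, 118825 and 85571 and levels of 5.55, 5.53, 5.38 and 5.51. The probe printed 10 times had levels of 3.24, 3.24, 3.36 and 3.34, over 9, 7, 8 and 7 usable spots. The range of A_44_P1164248 was 0.55 from median signals with normexp correction and 0.49 with quantile normalization, with replicates 2 and 3 below the others in both.

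**Figure D2:**
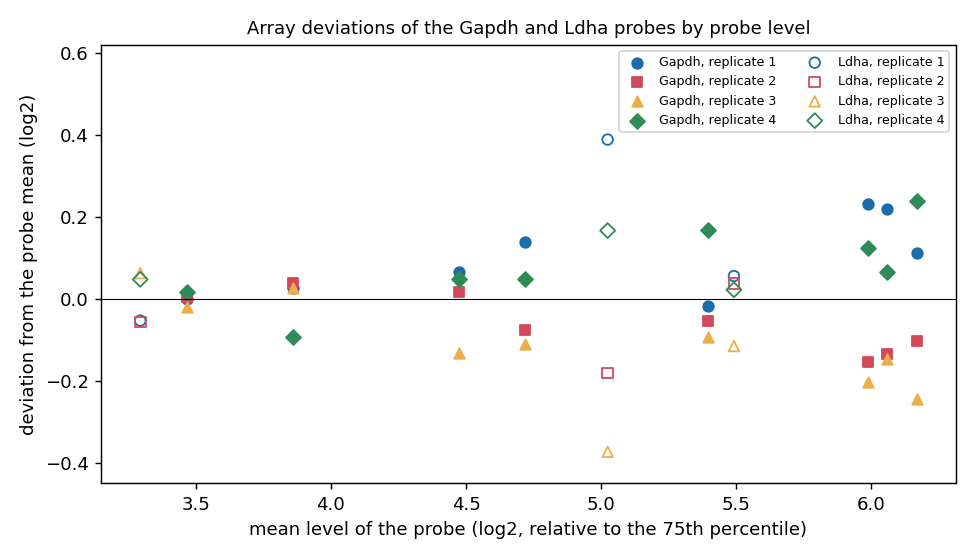
Deviation of each Gapdh (filled) and Ldha (open) probe on each array from that probe's mean (vertical, log2) against the mean level of the probe (horizontal, log2). Arrays spread further apart for the Gapdh probes near 6 than for those under 4, and the Ldha probe at 5.02 has the widest spread.

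Replicates 2 and 3 were both lower than replicates 1 and 4 for 9 of the 24 probes: 6 of Gapdh and 1 each of Slc2a1, Eno1 and Ldha. This order held for 25.4% of all detected probes and for 47.7% of the 10% of them with the highest levels, which held 19 of the 24 probes. With quantile normalization it held for 2 of the 24, for 19.2% of all detected probes and for 20.4% of the brightest 10%. From median signals with normexp correction it held for 9 of the 24, for 50.4% of all and for 39.6% of the brightest 10%. Replicates 2 and 3 also had the higher overall signal, and the part of overall signal and probe brightness in the order was not tested.

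For most of the 10 genes the cultures differed little. Their SD had a median of 0.068 on the log2 scale, against 0.093 for all 8685 detected named genes. It was 0.064 for the 10% of genes with the highest levels, which held 6 of the members. With normexp correction the median was 0.089 for the members and 0.099 for all genes, and with quantile normalization 0.080 and 0.093. Gene levels average unlike numbers of probes: 4 of the 10 genes had several detected probes, against 1712 of the 8685. They also average unlike numbers of spots. Slc2a1, Hk2, Aldoa, Tpi1 and Pgk1 were each read by 1 spot per array, Eno1 by 30 and Pkm by 22. The gene SD was below that of every single probe for Eno1 and Pkm, but not for Gapdh and Ldha. The part of averaging in these medians was not tested. Slc2a1, Hk2, Gapdh and Ldha had an SD above the median of all genes and the other 6 genes had one below it. Which genes lay above depended on the scaling, Slc2a1 excepted: with quantile normalization they were Slc2a1, Hk2, Aldoa and Pgk1, with median centring Slc2a1, Hk2 and Ldha, and with normexp correction Slc2a1, Aldoa, Gapdh, Pgk1 and Ldha. No member spanned over 2-fold between arrays, against 1.11% of detected named genes. The highest array exceeded the lowest by 1.28-fold for Slc2a1 and by 1.05-fold for Tpi1, and the other 8 genes lay between.

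**Figure D3:**
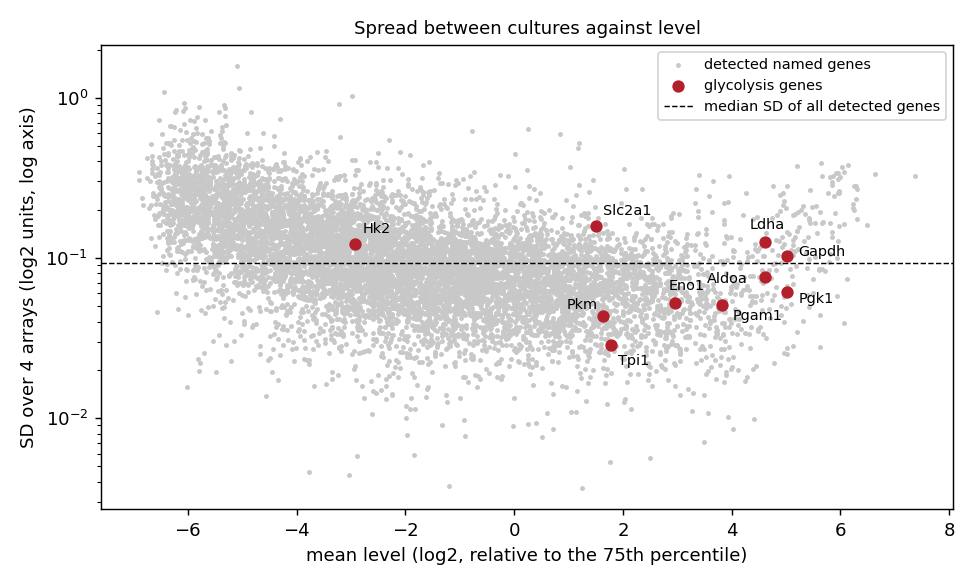
SD over the 4 arrays (vertical, log axis, log2 units) against mean level (horizontal, log2) for all detected named genes (grey) and the 10 glycolysis genes (red), with the median SD of all detected genes as a dashed line at 0.093. Under this scaling Slc2a1, Hk2, Gapdh and Ldha lie above the line.

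Whether the members lay on one side of their means on an array depended on the scaling. The median deviation of the 10 genes from their own means was 0.021, -0.006, -0.021 and 0.020 on replicates 1 to 4, against -0.007, -0.009, 0.005 and 0.008 over all detected genes. On each array 4 or 5 of the 10 genes were above their own mean. The share over all detected genes was 47.6%, 45.7%, 53.0% and 53.0% on replicates 1 to 4. With quantile normalization the medians were -0.045, 0.034, 0.039 and -0.009, and 3, 7, 8 and 4 genes were above their means on replicates 1 to 4, beside 42.8%, 53.5%, 57.6% and 47.9% of all detected genes. With normexp correction 7, 3, 5 and 5 were, beside 69.3%, 30.8%, 36.5% and 65.1%. Hk2 was lowest and Slc2a1 highest on replicate 4, at -0.18 and 0.23 from their means. Under the percentile scaling, the 3 genes outside the pathway whose deviations lay nearest to the median of the members were Uxt, Rsrp1 and Eif1, with root mean square differences of 0.004, 0.004 and 0.005 over 4 arrays. Tpi1, the nearest member, was at 0.039, and 882 of 8675 other detected genes were nearer than that, so likeness over 4 arrays singles out no gene.

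**Figure D4:**
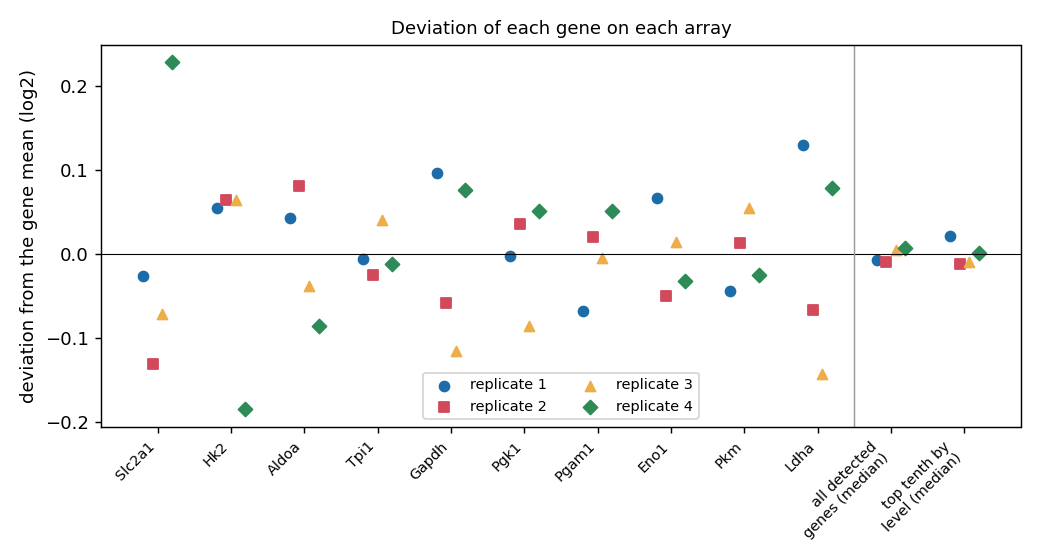
Deviation of each of the 10 genes on each array from its own mean (log2), with the medians over all detected genes and over the 10% with the highest levels at the right. Deviations reach 0.23 for Slc2a1 and -0.18 for Hk2 on replicate 4 and show no order of arrays shared by all genes.

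Replicate spots gave a measure of spread within an array. A spot position could be high on every array. Spot 5 of Pkm probe A_43_P12756 was its highest on all 4, at 4.00, 3.91, 3.95 and 3.90. The spot SD therefore holds differences between positions as well as error. The 7 member probes printed 10 times were those of Pgam1, Eno1, Pkm and Ldha. Spots of a probe on the same array had an SD of 0.051 to 0.10, and the largest difference between arrays was 0.086 to 0.18. In limma's moderated F test over spots, with Benjamini-Hochberg adjustment over all 1742 probes printed several times, 5 of the 7 differed between arrays. The share over all these probes was 42.8%, and 65.7% for those printed 10 times, so the count of members is near the background. The test compares arrays and treats spots as replicates, so it says nothing of conditions, and with 1 array per culture it cannot part a culture from its array. The fit ignores that the arrays share spot positions, and how far this moves its p-values was not tested.

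Eno1 had the smallest p-value, for probe A_44_P1124319, with 3.46 on replicate 1 and 3.30, 3.34 and 3.32 on replicates 2 to 4 (limma adjusted p = 1.13e-06). On replicate 1 its lowest spot, at 3.42, was above the highest spot of the other arrays, at 3.41. The other Eno1 probes had adjusted p-values of 0.00445 and 0.0114 in the same limma test. Both Pkm probes printed 10 times were higher on replicates 1 and 3 than on replicates 2 and 4, an order that A_43_P12756 did not have with quantile normalization. Probe A_44_P1163951 was at 3.06, 2.95, 3.12 and 2.96 (limma adjusted p = 0.000114), and A_43_P12756 was at 3.85, 3.78, 3.84 and 3.76 (limma adjusted p = 0.0419). The probes of Pgam1 (limma adjusted p = 0.143) and Ldha (limma adjusted p = 0.0541) did not pass, and 31 of 40 Ldha spots were usable. These were 9, 7, 8 and 7 on replicates 1 to 4, so the Ldha array means are over unlike spots. Spots 1 and 7, at 3.43 and 3.34 on replicate 1, were dropped on replicate 2. With outlier spots kept, the probes of Pgam1 and Ldha did not pass either. With quantile normalization 6 of the 7 passed, these probes of Pgam1 and Ldha among them and A_64_P093037 of Eno1 not, and the Ldha probe also passed without replicate 1. Leaving out replicate 1, 2, 3 or 4 left 3 called probes each time, with A_44_P1163951 among them in all 4 fits and A_44_P1124319 in each except the fit without replicate 1. From median signals with normexp correction 0 of the 7 passed in limma's test, and 0 had an unadjusted p under 0.05.

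**Figure D5:**
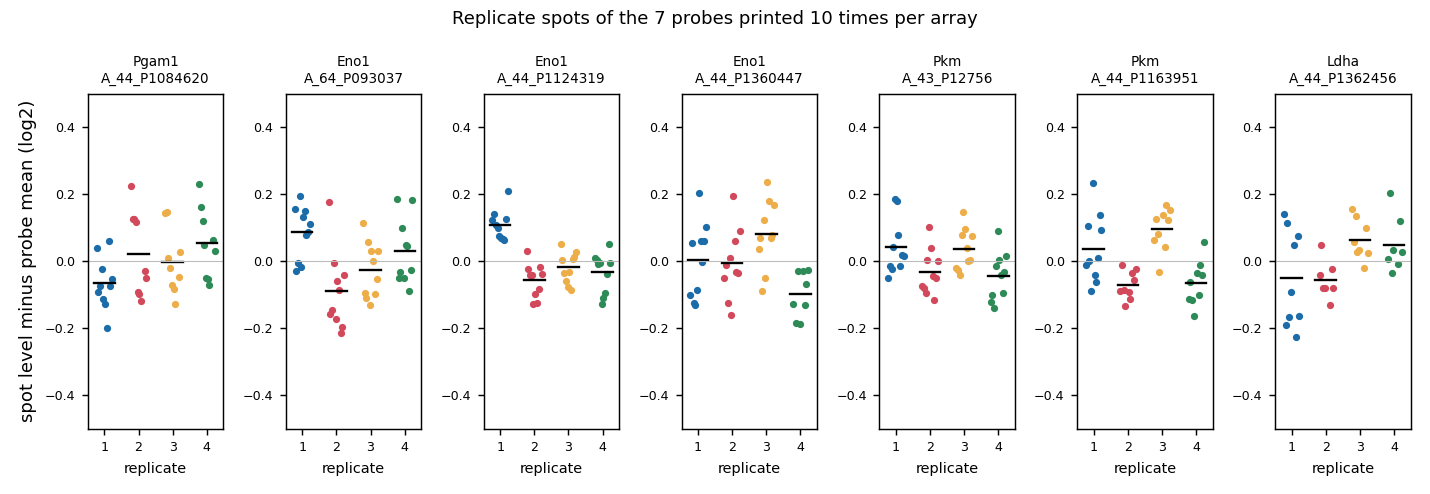
Level of every usable spot minus the mean of its probe (vertical, log2) on the 4 arrays (horizontal) for the 7 probes printed 10 times, with a black bar at the mean of each array. For Eno1 probe A_44_P1124319 the spots of replicate 1 lie above those of the other arrays, and for the other probes the arrays overlap in part.

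The remaining steps of glycolysis were mostly detected. Of 4 genes for steps outside the members, Gpi, Pfkl and Pfkp were detected on every array and Pfkm on none. The share detected was 75%, against 52.4% of all named genes. Gpi, the isomerase after hexokinase, was at 3.42 ± 0.05, and the phosphofructokinase genes Pfkl and Pfkp, for the committed step, were at -2.02 ± 0.16 and 3.24 ± 0.05 (SD, n = 4). With a looser flag, positive and significant signal, Pfkm was detected on all 4 arrays.

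Related genes encode alternative forms of the members, many of them typical of other tissues. Of 19 with a probe, 6 were detected on every array (31.6%, against 52.4% of all named genes) and 12 on none. The fructose transporter gene Slc2a5 was at -3.48 ± 0.43, the transporter gene Slc2a8 at 0.42 ± 0.10, the hexokinase gene Hk3, a form found in myeloid cells, at 0.82 ± 0.06 and the enolase gene Eno2 at -1.67 ± 0.04 (SD, n = 4). Eno3 and Ldhb were the other detected pair. The 2 Eno2 probes lay 2.11 apart. Slc2a3, Slc2a4, Slc2a6, Hk1, Aldoc, Gapdhs, Pgk2, Pgam2, Eno4, Pklr and Ldhc were among those in no case well above background. With the looser flag 10 of 19 were detected, beside 61.3% of all named genes, and Aldoc, Gapdhs and Pgam2 were among those that then passed on 4 arrays. No probe was matched to Hkdc1. A probe that is not well above background gives only an upper bound, and detection depends on the probe as well as on the transcript.

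Genes that set the flux were detected for 11 of 12 (91.7%, against 52.4% of all named genes). The family that makes and removes fructose 2,6-bisphosphate, the activator of phosphofructokinase, was detected for each of its genes, though not by each probe. Pfkfb1 was at -0.36 ± 0.04, Pfkfb2 at -3.90 ± 0.16, Pfkfb3 at -2.87 ± 0.11 and Pfkfb4 at -3.37 ± 0.11 (SD, n = 4), and the pair of Pfkfb3 probes lay 6.61 apart. Of the 4 Pfkfb2 probes 2 were detected, 2.80 apart, and the pair of Pfkfb4 probes lay 3.29 apart. Among pyruvate dehydrogenase kinase genes, Pdk1, Pdk2 and Pdk3 were detected and Pdk4 was not. Tigar, Bpgm, Txnip and Adpgk were detected as well.

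Genes for lactate and pyruvate transport and for pyruvate entry into mitochondria were detected for 7 of 9 (77.8%, against 52.4% of all named genes). The lactate carrier gene Slc16a1 was at -1.98 ± 0.04 and Bsg, which encodes its chaperone basigin, at 2.44 ± 0.09. Mpc1 and Mpc2, the subunits of the mitochondrial pyruvate carrier, were at 1.73 ± 0.11 and 1.84 ± 0.04 (SD, n = 4). Slc16a3, the gene of the lactate exporter MCT4, was detected on no array, or on 3 with the looser flag, and Slc16a7 on 1. Pdha1, Pdhb and Dlat of the pyruvate dehydrogenase complex were detected, and no probe was matched to Pdhx.

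The pentose phosphate pathway, which branches from glucose 6-phosphate and supplies NADPH, was detected for 7 of 7 genes, against 52.4% of all named genes. Pgls was at 3.19 ± 0.04, Pgd at 0.97 ± 0.10 and Rpia at 0.68 ± 0.13 (SD, n = 4). Rpe, Tkt and Taldo1 were detected as well. Of the genes of gluconeogenesis 4 of 7 were detected (57.1%), which is near the share of all named genes. G6pc3, a glucose 6-phosphatase form expressed widely, was at 0.02 ± 0.07, Fbp1 at -6.11 ± 0.16, Pck2 at 1.28 ± 0.09 and Pc at 0.32 ± 0.06 (SD, n = 4). Of the 2 Fbp1 probes 1 was detected. On replicate 1 it was at -6.27, near the lowest detected level of that array, -6.81. G6pc1, Fbp2 and Pck1, the forms of liver, muscle and cytosol, were detected on no array.

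Transcription regulators and other HIF1 targets were detected for 13 of 16 (81%, against 52.4% of all named genes). Hif1a, the oxygen-regulated subunit of HIF1, was at -3.11 ± 0.31, from a pair of probes whose means were 5.93 apart. Its partner gene Arnt was at -3.87 ± 0.11, from 1 detected probe of 2. The prolyl hydroxylase gene Egln2 was at -0.30 ± 0.10 and Vhl, whose product leads HIF1 to degradation, at 0.53 ± 0.06 (SD, n = 4). Hif1an, Myc, Bnip3, Ankrd37, Car9, Adm, P4ha1, Ddit4 and Ndrg1 were detected on every array. Epas1, Egln3 and Vegfa were detected on none, and Egln3 passed the looser flag on all 4. No probe was matched to Egln1. The 7 lists together had 74 genes with a probe, of which 51 were detected on every array (68.9%), against 52.4% of all named genes, and their median SD was 0.094. None of the 51 spanned over 2-fold between arrays.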

How the data were processed

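Total RNA of 4 exposed NR8383 cultures was labelled with Cy3 and read on 1-colour Agilent arrays, 1 array per culture. All arrays shared 1 slide and 1 scan, which gives no batches to test. Per the submitters' processing notes, Agilent Feature Extraction 11.0.1.1 produced the deposited intensity of each spot. Per the file headers, background subtraction and detrending had been applied to the processed signal array by array, with no normalization across arrays. The deposited raw median intensity of spot and local background was used in the normexp alternative only, and the deposited flags of 0 or 1 gave detection, saturation and outliers.

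Control spots and outlier spots (427 to 714 per array) were left out, log2 signals were averaged over the spots of a probe, and 18585 to 19931 probes were detected per array. Under 50% of probes were detected, so the percentile was taken over the 17807 detected on all arrays. Probes were named through RefSeq accessions without version in a rat gene table of assembly GRCr8 (46.3% matched), and a gene's level is the mean of its detected probes. The F test used limma 3.58.1 in R 4.3.3 with a threshold of 0.05 and was tested on simulated data. The simulated spots were independent, with no effect of position shared between arrays, so this does not cover the shared positions of the real spots. Figures used matplotlib 3.10.9 in Python 3.11.15. The precision of every level is limited by the 4 arrays.

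The members and lists were chosen with earlier results of these data known. The genes named were all 10 members, every gene of the 7 pathway lists by its detection, levels for the first 4 detected genes of a list in written order, and the 3 genes with the nearest profile. A few genes that this rule takes in are counted in their lists and not reported here by name. The alternatives tried were quantile normalization, normexp correction (offset 50), median centring, the 75th percentile of all probes, outlier spots kept, a looser flag, detection on at least 3 arrays, no filter on dim probes, the brightest probe, and leaving out each replicate. The median of the probes was added after seeing the data.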

Additional observations from a re-analysis of the deposited data

Results flagged for a closer look

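In 58 series of 4 arrays (gene levels, and single probes where a gene had several), 1 array was compared with the other 3 by Dixon's ratio, the gap to the nearest array over the whole range, at its 95% critical value. Of these, 5 passed, where chance gives about 2.9. Hk2, read by 1 spot per array, was at -3.10 on replicate 4, against -2.86 to -2.85 on the other arrays (ratio 0.961). Probe A_44_P1361311 of Gapdh was at 3.77 on replicate 4, against 3.89 to 3.90 (ratio 0.912). The dim Pkm probe A_64_P024077 was at -3.94 on replicate 1, against -3.63 to -3.60 (ratio 0.910). Pfkfb1 was at -0.43 on replicate 1, against -0.34 on each of the others (ratio 0.928). Slc16a1 was at -1.91 on replicate 4, against -2.01 to -1.99 (ratio 0.837). None of the 5 passed under all scalings. With normexp correction all 5 fell short, with ratios of 0.639 for Hk2, 0.184 for A_44_P1361311, 0.516 for A_64_P024077, 0.368 for Pfkfb1 and 0.626 for Slc16a1, and with the 75th percentile of all probes all 5 fell short as well, at 0.385 to 0.814. With quantile normalization Hk2 (0.900) and Pfkfb1 (0.937) passed, and with median centring Hk2 alone did (0.906). With outlier spots kept all 5 passed.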

How the results depend on the processing

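Detection of the 10 genes, the absence of a span over 2-fold, and the list counts other than that of alternative forms stayed within the set margins under every alternative run on them. The median SD of the members ran from 0.054 without replicate 4 to 0.089 with normexp correction from median signals. With that correction the median over all detected genes was 0.099, against 0.093. The number of member probes that differed between arrays in limma's F test was 0 with normexp correction and 3 when any 1 of the 4 replicates was left out, against 5. It was 6 with quantile normalization. The median deviation of the members turned sign with quantile normalization on all 4 replicates, to -0.045, 0.034, 0.039 and -0.009, against 0.021, -0.006, -0.021 and 0.020, and 1 or more of these signs also turned with normexp correction, median centring and the 75th percentile of all probes. The median span between probes of a gene was 2.56 with normexp correction, against 2.45. With the looser detection flag 10 alternative forms were detected, against 6. The cause was not tested. Levels themselves depend on the point they are measured from and on the probes used: the level of Pkm was 1.64 over its probes, 3.81 for its brightest probe and 3.21 for the median of its probes, an alternative chosen after seeing the data. Of 140 values of single genes under alternatives, 51 moved by over 1 SD. Signal over background limits the dim end: the lowest detected level was -7.49 to -6.81, and of the 308 negative controls on an array, 1 to 3 carried the detection flag. No paired analysis was possible because all samples belong to 1 group.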
